A study of Homo sapiens with 4 samples.

Results

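The genes examined encode the RNA-binding proteins that choose splice sites in human cells. They were 39 genes, taken by symbol from the table of all genes in each of the 4 libraries, and they comprised 23 heterogeneous nuclear ribonucleoproteins (hnRNPs, with the related PCBP1, PCBP2, PTBP1 and RBMX), 14 serine/arginine-rich (SR) or SR-related proteins, and CLK1 and CLK4, the kinases that phosphorylate SR proteins. All 39 were found among the 18650 loci with any fragment. Sturgeon chondroitin sulfate (SCS), a sulfated glycosaminoglycan from sturgeon, was given at 100 μg/mL for 24 h to HT-29, a human colorectal cancer cell line, and to NCM460, a line derived from normal human colon epithelium. Untreated cells of each line were the controls. RNA-seq of the 4 conditions was compared within each line, with hnRNP and SR genes kept apart. Each condition had 1 library, so no difference had a replicate check and no p-value is given.

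hnRNP proteins coat nascent transcripts, and many of them hold the splicing machinery away from exons, whereas SR proteins bind enhancer sequences in exons and recruit that machinery. CLK kinases phosphorylate the arginine/serine-rich domain of SR proteins and release them from nuclear speckles, and so set how much of the SR pool is active. Many genes of both families limit their own expression through exons or introns that send the transcript to nonsense-mediated decay, and in colorectal tumours several of them, among them SRSF1, SRSF3, SRSF6, HNRNPA1 and PTBP1, are known for raised expression. The values below are per gene, so such isoforms were not told apart.

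The libraries held between 1156568 and 1654764 fragments. Mitochondrial genes took 35.8% of them in the HT-29 control and 13.8% with SCS, and 62.3% and 46.3% in NCM460, which left 507692 to 1383424 nuclear fragments. Levels are given as CPM (fragments scaled to a common library size) after edgeR's TMM scaling over the 4 libraries, and changes as log2 fold changes of SCS over control with an exact Clopper-Pearson 95% interval in brackets. Such an interval covers counting error only. The word called is kept for loci beyond 1.5-fold in either direction whose interval leaves out 0. The colon epithelium markers KRT20, VIL1 and LGALS4 had 24 to 464 fragments in the HT-29 libraries and 0 in those of NCM460, while CDX2 had 0 in HT-29 and 14 and 12 in NCM460. KRT8 and KRT18 were present in all 4 libraries. Of 12 such markers, 10 had a row above 0. Among these 10, 1 and 2 had 0 fragments in the HT-29 control and SCS libraries, and 4 had 0 in each NCM460 library. They summed to 1.26% and 0.614% of nuclear fragments in the HT-29 control and SCS libraries and to 0.667% and 0.463% in those of NCM460. Of 8 mesenchymal markers 5 had a row above 0, and they summed to 0.00113% to 0.00152% in HT-29 and 0.0181% to 0.0227% in NCM460. SPARC had 65 and 102 fragments in NCM460 and 0 in HT-29. Of 5 immune markers 2 had a row and summed to 0.0680% to 0.118% over the libraries. LYZ had 603 and 352 fragments in HT-29 and 0 in NCM460, and CD68 shares its locus with EIF4A1. The part of these differences in the changes below was not tested.

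For orientation, the 250 bases before the RefSeq transcription start (GRCh38.p14) are shown for the hnRNP and the SR gene that fell furthest in HT-29 cells, HNRNPAB and SRSF3, and for the kinase that rose furthest there, CLK1. Each runs 5′ to 3′ along the strand of the gene, and capitals mark the CCAAT box bound by NF-Y, read on either strand as CCAAT or ATTGG.
HNRNPAB promoter, chr5:178204283-178204532, plus strand: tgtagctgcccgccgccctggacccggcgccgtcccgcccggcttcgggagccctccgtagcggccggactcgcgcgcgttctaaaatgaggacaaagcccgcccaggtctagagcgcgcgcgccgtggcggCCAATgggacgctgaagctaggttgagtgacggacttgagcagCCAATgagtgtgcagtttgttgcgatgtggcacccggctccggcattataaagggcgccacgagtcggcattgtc
SRSF3 promoter, chr6:36594112-36594361, plus strand: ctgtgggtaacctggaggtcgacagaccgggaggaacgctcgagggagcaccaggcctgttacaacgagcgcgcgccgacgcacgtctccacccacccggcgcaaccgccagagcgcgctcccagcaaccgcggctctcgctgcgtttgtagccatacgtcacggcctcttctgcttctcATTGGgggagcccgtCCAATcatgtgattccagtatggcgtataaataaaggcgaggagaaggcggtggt
CLK1 promoter, chr2:200864659-200864908, minus strand: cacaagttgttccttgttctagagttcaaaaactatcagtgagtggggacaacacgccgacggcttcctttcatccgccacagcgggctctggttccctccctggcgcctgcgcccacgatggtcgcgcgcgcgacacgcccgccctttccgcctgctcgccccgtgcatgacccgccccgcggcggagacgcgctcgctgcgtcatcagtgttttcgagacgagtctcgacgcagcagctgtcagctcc
The boxes of HNRNPAB lay 118 and 75 bases before the start and those of SRSF3 70 and 55 bases before it, while the CLK1 window held none. Promoters were found for 36 of the 39 genes, all except HNRNPA1, SRSF2 and TRA2A, and several genes had more than 1. A CCAAT box stood in 19 of 34 hnRNP promoters (55.9%), in 2 of 16 SR promoters (12.5%), in 0 of 3 CLK promoters and in 32.0% of 35116 promoters of the same length. The E-box CACGTG was in 7 of 34 hnRNP promoters and 0 of 16 SR promoters, against 6.34% of all. E2F letters (TTTCCCGC or TTTGGCGC) were in 2 of 34 hnRNP and 2 of 16 SR promoters (1.93% of all), and the ETS letters CCGGAAG in 4 and 2 (8.52% of all). The CRE letters TGACGTCA were in none of the 53 member promoters, against 1.65% of all. Both strands were searched in each case. Such a match is a description of the letters and not a binding site.

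In HT-29 cells, SCS was accompanied by lower transcript levels of many genes in both families and by higher levels of CLK1 and CLK4. Of the 23 hnRNP genes, 12 fell, led by HNRNPAB (3.24-fold), and none rose. Of the 14 SR genes 7 fell, led by SRSF3 (2.17-fold), and 1 rose, SRSF11. CLK1 and CLK4 rose 3.15-fold and 2.58-fold. In bulk RNA, fewer cells of a type and less RNA per cell cannot be told apart. Over all 12168 loci tested in this line, 14.8% were called lower and 16.8% higher. The median log2 fold change was -0.59 for the hnRNP genes and -0.53 for the SR genes, against 0.07 for all loci, and 19 of 23 hnRNP and 10 of 14 SR genes had a value below 0. When only the total number of fragments set the scale, the median of all loci moved to 0.31, calls were 24.9% higher and 8.81% lower, and 5 hnRNP genes (all lower) and 5 SR genes (2 higher, 3 lower) were called. Relative to the median of all loci, the hnRNP median was -0.66 under TMM and -0.63 by total fragments, and the SR median -0.60 and -0.57. With nuclear totals alone, calls over all loci were 11.3% higher and 17.2% lower, with 0 higher and 14 lower among hnRNP genes and 0 higher and 8 lower among SR genes.

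**Figure D1:**
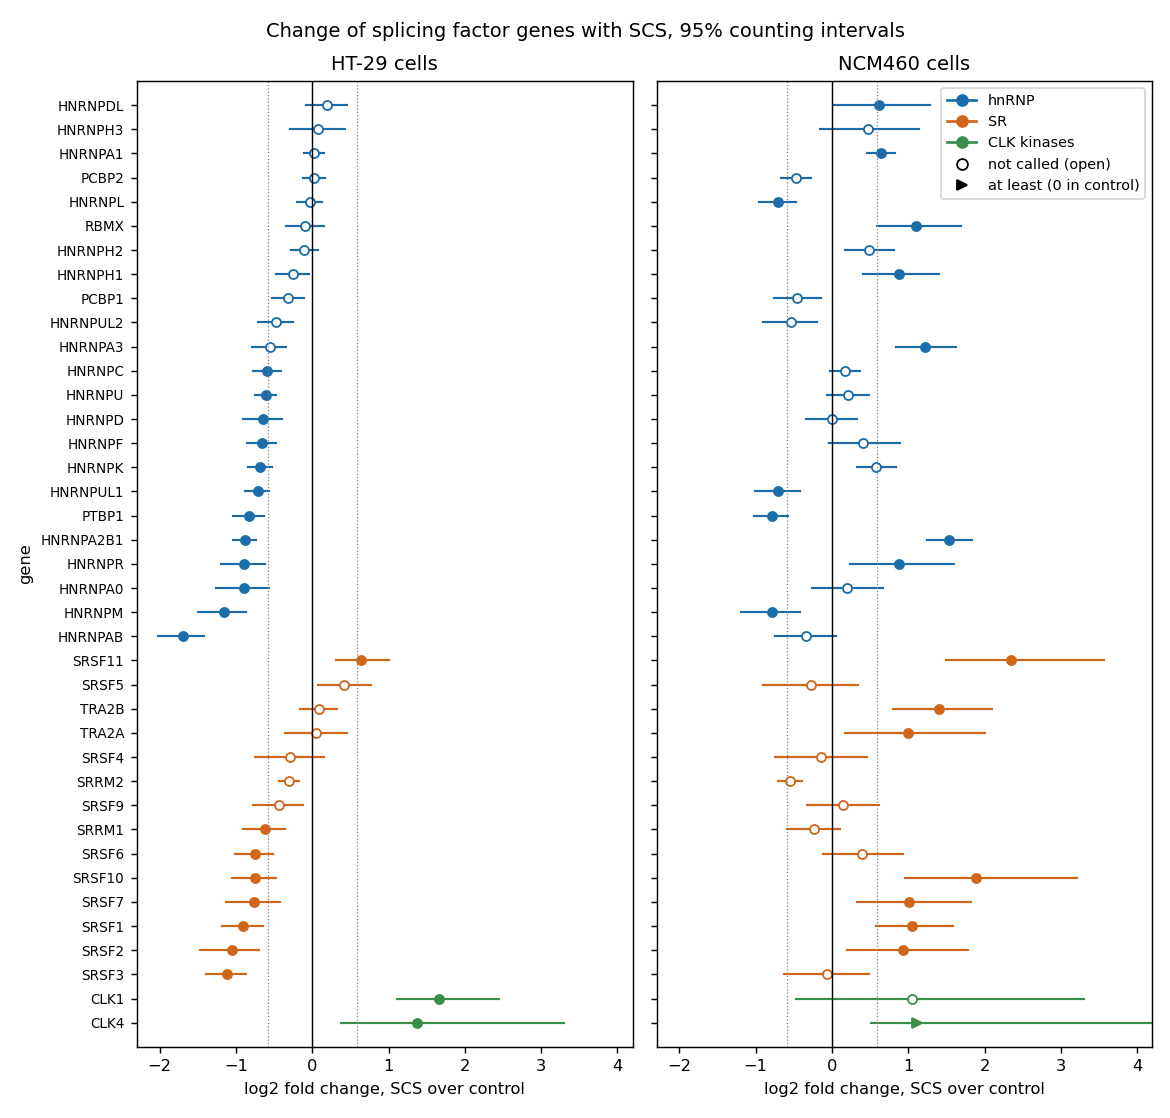
Log2 fold change of SCS over control (x axis) for each of the 39 genes (y axis) in HT-29 (left) and NCM460 (right), with exact 95% counting intervals as bars, filled points for called genes and dotted lines at 1.5-fold. In HT-29 the hnRNP and SR points lie mainly left of 0, at -1.70 to 0.19 and -1.12 to 0.64, and both CLK kinases lie right of it. In NCM460 the points spread on both sides of 0, and CLK4, with 0 fragments in the control, is drawn as a triangle at the fold against 3 fragments.

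The A/B-type genes held the largest hnRNP fall in HT-29. HNRNPAB (chr5:178204507-178211180 on GRCh38, plus strand), an A/B-type protein that binds single-stranded nucleic acid, had 356 fragments (174 CPM) in the HT-29 control and 127 (52.9 CPM) with SCS, and 102 (131 CPM) in the NCM460 control and 111 (103 CPM) with SCS. Its log2 fold change in HT-29 was -1.70 (-2.02 to -1.42), the lowest of the 39 genes, and -0.35 (-0.75 to 0.051) in NCM460. The HT-29 library with SCS was thus the lowest of the 4. HNRNPA2B1 (chr7:26189927-26201529, minus strand), an exon repressor that also sorts RNAs for transport, had 968 fragments (473 CPM) in the HT-29 control and 613 (255 CPM) with SCS, and 117 (150.2 CPM) in the NCM460 control and 471 (436 CPM) with SCS. It fell by 1.85-fold in HT-29, -0.89 (-1.04 to -0.74), and its lowest level was in the NCM460 control. HNRNPA0, which binds AU-rich elements of mRNAs, had 183 fragments (89.4 CPM) in the HT-29 control and 114 (47.4 CPM) with SCS, and 64 (82.2 CPM) in the NCM460 control and 102 (94.3 CPM) with SCS. Its change in HT-29 was -0.90 (-1.27 to -0.57). The 2 other A-type genes were not called in this line. HNRNPA3 stood just short of 1.5-fold at -0.56 (-0.79 to -0.34), and HNRNPA1, the best known exon repressor of the family, was at 0.020 (-0.11 to 0.15), so the A/B genes did not move as a block.

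Other hnRNPs with lower levels in HT-29 bind distinct sequences. HNRNPM, which binds GU-rich RNA, had 243 fragments (119 CPM) in the HT-29 control and 126 (52.4 CPM) with SCS, and 128 (164 CPM) in the NCM460 control and 102 (94.3 CPM) with SCS. Its log2 fold change was -1.16 (-1.5 to -0.86) in HT-29. HNRNPR, a relative of SYNCRIP, had 258 fragments (126 CPM) in the HT-29 control and 162 (67.4 CPM) with SCS, and 27 (34.7 CPM) in the NCM460 control and 70 (64.7 CPM) with SCS. The change in HT-29 was -0.89 (-1.20 to -0.61), a fall of 1.85-fold. PTBP1, the polypyrimidine tract-binding repressor of exons, had 480 fragments (235 CPM) in the HT-29 control and 316 (132 CPM) with SCS, and 375 (481 CPM) in the NCM460 control and 300 (277 CPM) with SCS, and its row also holds MIR4745. The change in HT-29 was -0.83 (-1.04 to -0.63). HNRNPK, which binds C-rich RNA and shares its row with MIR7-1, had 777 fragments (379.8 CPM) in the HT-29 control and 568 (236 CPM) with SCS, and 185 (238 CPM) in the NCM460 control and 385 (356 CPM) with SCS, a change in HT-29 of -0.68 (-0.84 to -0.53). HNRNPF, a binder of G-runs, had 519 fragments (254 CPM) in the HT-29 control and 384 (159.8 CPM) with SCS, and 61 (78.3 CPM) in the NCM460 control and 113 (104 CPM) with SCS, a change in HT-29 of -0.66 (-0.86 to -0.47). These genes have no common sequence preference, and their falls ran from 1.58-fold to 2.24-fold.

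The other hnRNP falls in HT-29 ran from 1.5-fold to 1.64-fold. HNRNPU, a nuclear matrix protein that also binds DNA, had 1023 fragments (500.0 CPM) in the HT-29 control and 785 (327 CPM) with SCS, and 181 (232 CPM) in the NCM460 control and 291 (269 CPM) with SCS. Its row is shared with HNRNPU-AS1, an antisense gene, and since the counting is not stated to use strand their reads cannot be told apart. The change in HT-29 was -0.61 (-0.75 to -0.48). HNRNPUL1, a relative of HNRNPU that acts in the DNA damage response, had 805 fragments (393 CPM) in the HT-29 control and 574 (239 CPM) with SCS, and 211 (271 CPM) in the NCM460 control and 178 (165 CPM) with SCS, a change in HT-29 of -0.72 (-0.88 to -0.56). HNRNPC, which binds U-tracts and forms the core of hnRNP particles, had 548 fragments (268 CPM) in the HT-29 control and 427 (178 CPM) with SCS, and 336 (431 CPM) in the NCM460 control and 525 (485 CPM) with SCS, a change in HT-29 of -0.59 (-0.78 to -0.41). In the paper's protein gels of HT-29, hnRNP C was instead listed as higher with SCS at this dose. For NCM460 those gels listed an hnRNP, not named further, as higher. Protein levels were not examined here. HNRNPD (AUF1), a regulator of AU-rich mRNA decay, had 312 fragments (152 CPM) in the HT-29 control and 233 (97.0 CPM) with SCS, and 133 (171 CPM) in the NCM460 control and 184 (170.1 CPM) with SCS, a change in HT-29 of -0.65 (-0.90 to -0.40). HNRNPC and HNRNPU lay closest to the 1.5-fold line among the called genes, at 1.5-fold and 1.53-fold lower. The hnRNP genes that were not called in HT-29 numbered 11, from HNRNPA3 at -0.56 to HNRNPDL at 0.19 (-0.077 to 0.46), and included all of HNRNPH1, HNRNPH2 and HNRNPH3 and both PCBP genes.

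Among the SR genes, the largest falls in HT-29 were those of SRSF3, SRSF2 and SRSF1. SRSF3 (chr6:36594353-36605600, plus strand), the smallest SR protein, which also acts in mRNA export and 3′-end formation, had 351 fragments (172 CPM) in the HT-29 control and 188 (78.2 CPM) with SCS, and 50 (64.2 CPM) in the NCM460 control and 66 (61.0 CPM) with SCS. Its log2 fold change in HT-29 was -1.12 (-1.40 to -0.87), and the HT-29 control stood apart at the top while the other 3 libraries lay close together. SRSF2, an activator of exon inclusion, had 164 fragments (80.2 CPM) in the HT-29 control and 91 (37.9 CPM) with SCS, and 20 (25.7 CPM) in the NCM460 control and 54 (49.9 CPM) with SCS, and its row is shared with MIR636. The change in HT-29 was -1.06 (-1.47 to -0.70). SRSF1, the prototype SR protein and a known oncogene, had 301 fragments (147 CPM) in the HT-29 control and 187 (77.8 CPM) with SCS, and 46 (59.1 CPM) in the NCM460 control and 134 (124 CPM) with SCS. Its row also holds RP11-159D12.2 and RP11-159D12.5, so its values are uncertain, and its change in HT-29 was -0.91 (-1.19 to -0.65). These genes fell by 1.88-fold to 2.17-fold.

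The remaining SR falls in HT-29 were smaller. SRSF7, which like SRSF3 is an adaptor for mRNA export, had 172 fragments (84.1 CPM) in the HT-29 control and 118 (49.1 CPM) with SCS, and 22 (28.2 CPM) in the NCM460 control and 63 (58.3 CPM) with SCS, a change in HT-29 of -0.76 (-1.13 to -0.43). SRSF10, which turns into a repressor of splicing when dephosphorylated, had 246 fragments (120.2 CPM) in the HT-29 control and 170 (70.7 CPM) with SCS, and 9 (11.6 CPM) in the NCM460 control and 50 (46.2 CPM) with SCS, a change in HT-29 of -0.75 (-1.06 to -0.48). SRSF6 had 327 fragments (159.8 CPM) in the HT-29 control and 227 (94.5 CPM) with SCS, and 49 (62.9 CPM) in the NCM460 control and 90 (83.2 CPM) with SCS, a change in HT-29 of -0.75 (-1.01 to -0.51). This gene encodes an SR protein with tandem RNA recognition motifs. SRRM1, a splicing coactivator that bridges SR proteins and the spliceosome, had 264 fragments (129 CPM) in the HT-29 control and 200 (83.2 CPM) with SCS, and 134 (172 CPM) in the NCM460 control and 157 (145 CPM) with SCS, a change in HT-29 of -0.62 (-0.90 to -0.36).

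SRSF11 and the kinases moved the other way. SRSF11 (chr1:70205682-70253052, plus strand), an SR-related protein, had 107 fragments (52.3 CPM) in the HT-29 control and 198 (82.4 CPM) with SCS, and 10 (12.8 CPM) in the NCM460 control and 76 (70.3 CPM) with SCS. Its change in HT-29 was 0.64 (0.31 to 1.01), and it was not called with nuclear totals, with a GC or length trend subtracted or by FPKM. CLK1 (chr2:200853009-200864744, minus strand) had 25 fragments (12.2 CPM) in the HT-29 control and 99 (41.2 CPM) with SCS, and 4 (5.14 CPM) in the NCM460 control and 13 (12.0 CPM) with SCS. Its change in HT-29 was 1.65 (1.11 to 2.45), the highest of the 39 genes, with the HT-29 SCS library above the other 3. CLK4 had 6 fragments (2.93 CPM) in the HT-29 control and 23 (9.57 CPM) with SCS, and 0 (0 CPM) in the NCM460 control and 9 (8.32 CPM) with SCS, and its row also holds RN7SKP70. The change in HT-29 was 1.37 (0.37 to 3.29), an interval that rests on few fragments, and the gene was not called after thinning to equal nuclear depth. SR genes not called in HT-29 were SRSF4 at -0.29 (-0.75 to 0.15), SRSF5 at 0.41 (0.077 to 0.77), SRSF9 at -0.44 (-0.78 to -0.12), TRA2A at 0.048 (-0.36 to 0.46), TRA2B at 0.084 (-0.16 to 0.32) and SRRM2 at -0.31 (-0.44 to -0.18). TRA2A and TRA2B, which activate exons through GAA-rich enhancers, both lay close to 0 here.

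**Figure D2:**
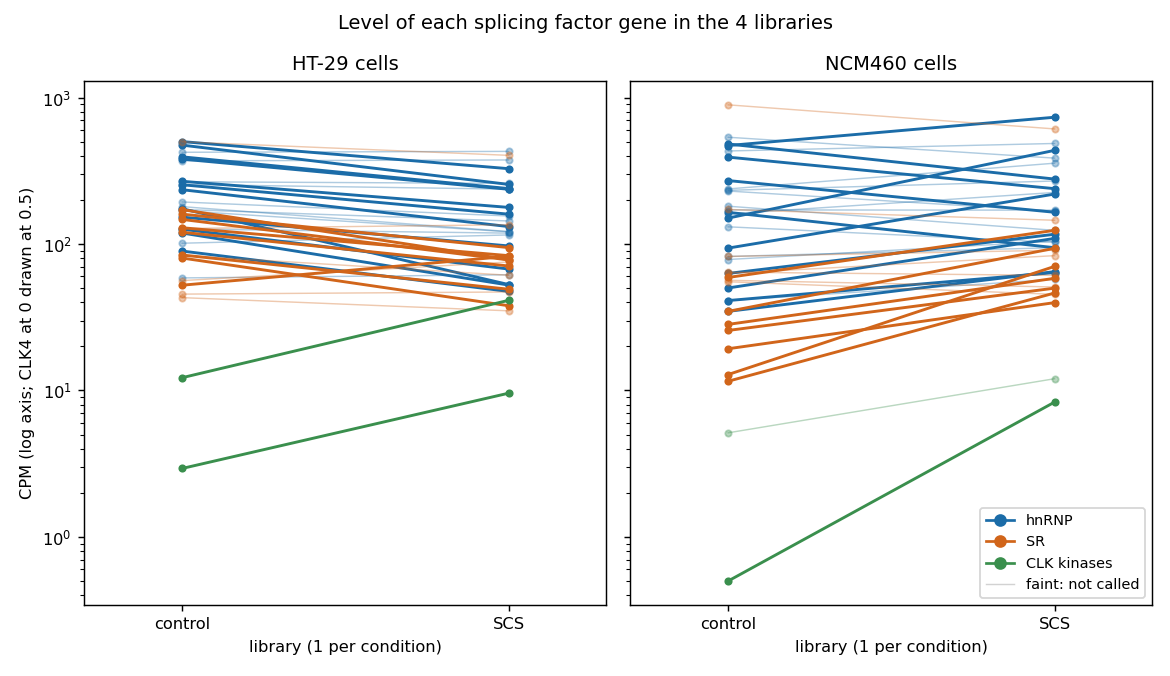
CPM of the 39 genes on a log axis in the control and SCS library of HT-29 (left) and NCM460 (right), with 1 line per gene, strong for called genes and faint for the others, and CLK4 at 0 fragments drawn at 0.5 CPM. In HT-29 the strong hnRNP and SR lines slope down except that of SRSF11, and the CLK1 and CLK4 lines slope up. In NCM460, 15 strong lines slope up and 4 slope down.

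In NCM460 cells the families were not lower as a whole under TMM scaling, and the changes followed the base composition of the transcripts. Of the 23 hnRNP genes 7 rose, led by HNRNPA2B1 (2.88-fold), and 4 fell, led by HNRNPM and PTBP1 (1.73-fold each). Of the 14 SR genes 7 rose, led by SRSF11 (5.07-fold) and SRSF10 (3.70-fold), and 0 fell. CLK4 was called higher and CLK1 was not. Over the 12657 loci tested, 15.4% were called higher and 13.8% lower. The median log2 fold change was 0.21 for hnRNP genes and 0.66 for SR genes, against 0.03 for all loci. With total fragments alone the median of all loci was 0.65, calls were 32.6% higher and 2.05% lower, and 15 hnRNP and 10 SR genes were called higher with 0 lower. By the authors' scaling, which put the median of all loci at -0.11, the hnRNP calls were 5 higher and 7 lower and the SR calls 7 higher and 1 lower, beside 12.5% of loci higher and 17.2% lower. DESeq2 size factors gave 5 and 5 hnRNP genes and 7 and 1 SR genes, beside 13.2% and 16.2%. By deposited FPKM, where the median of all loci was -0.39, 10.3% of loci were called higher and 24.5% lower, with 2 hnRNP genes higher and 9 lower and 2 SR genes higher and 6 lower. Most calls were thus lower on that scale, on which the SR median was -0.29 and the hnRNP median -0.26. Nuclear totals gave 11 and 2 hnRNP genes and 7 and 0 SR genes, beside 18.2% of loci higher and 9.48% lower (27.7% in all). Relative to the median of all loci, the hnRNP median was 0.18 and the SR median 0.63 under TMM.

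Across all 12588 loci with a transcript in GENCODE release 29, the log2 fold change in NCM460 followed GC content of the longest transcript with a Spearman's rho of -0.63, and in HT-29 rho was -0.12 over 12095 loci. Across the 39 genes, which share their libraries and are not replicates, rho was -0.67 in NCM460 and -0.20 in HT-29. Their GC content ran from 35.3% (HNRNPR) to 61.7% (PTBP1). In NCM460 the 21 genes under 42% GC had a median of 1.00 against 1.15 for all such loci, the 9 from 42 to 48% had 0.48 against 0.49, and the 9 above 48% had -0.55 against -0.48. In every GC class, then, the median of the members lay near that of all loci of the class. Single members did not all do so, and after the GC step below 10 of the 39 were called lower and 1 higher. In HT-29 the same classes of members had medians of -0.59, -0.44 and -0.47 against 0.25, 0.07 and -0.03, below the other loci in each. After a smooth GC trend was subtracted, 5.65% of loci in NCM460 were called higher and 6.25% lower, and 0 hnRNP genes were higher and 5 lower, with 1 SR gene higher (SRSF11) and 5 lower. The NCM460 medians were then -0.28 for hnRNP genes and 0.01 for SR genes, and of the 19 genes called there only HNRNPL and SRSF11 kept a call in the same direction. In HT-29 the same step left -0.65 and -0.60, with 13 hnRNP and 8 SR genes lower and none higher among them, beside 14.4% of loci higher and 16.0% lower (30.4% in either direction).

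**Figure D3:**
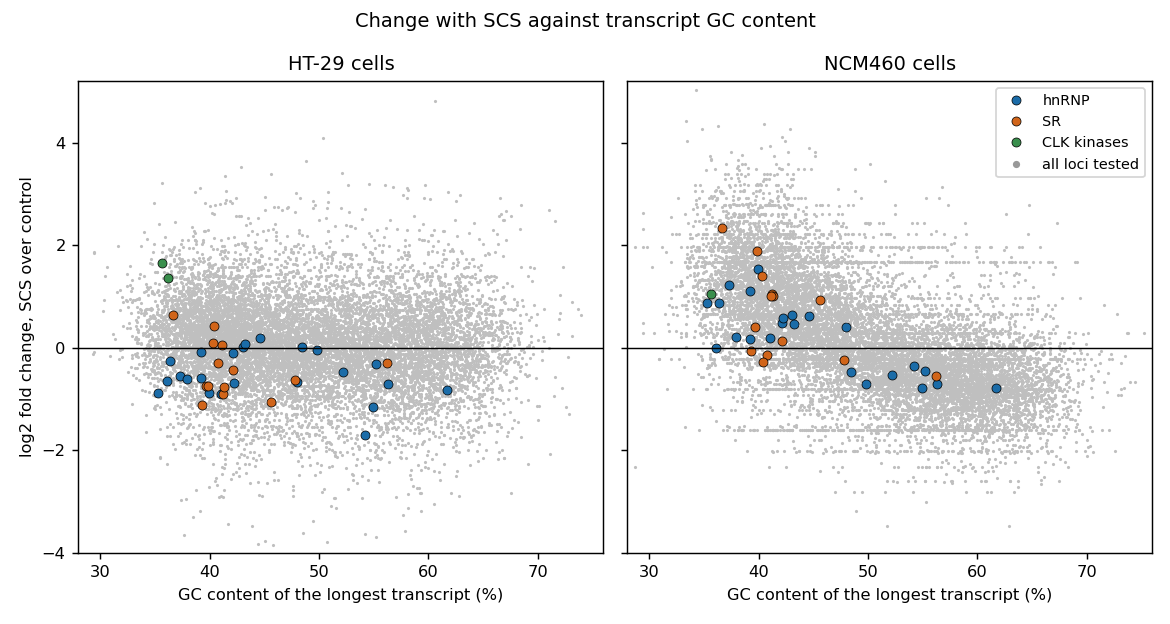
Log2 fold change of SCS over control (y axis) against GC content of the longest transcript in percent (x axis), with all loci in grey and the hnRNP, SR and CLK genes coloured, in HT-29 (left) and NCM460 (right). CLK4, at 0 fragments in the NCM460 control, is left out on the right. In NCM460 the grey cloud and the coloured points run downward together, with a rho of -0.63 and -0.67, and in HT-29 the coloured points sit mainly below 0 at every GC content.

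HNRNPA2B1, HNRNPA3 and RBMX led the hnRNP rises in NCM460. HNRNPA2B1, with the levels given above, had a change of 1.53 (1.24 to 1.84), and 0.44 (0.15 to 0.75) after the GC trend was subtracted. HNRNPA3, a close relative that shares its row with MIR4444-1, had 368 fragments (179.9 CPM) in the HT-29 control and 292 (122 CPM) with SCS, and 73 (93.7 CPM) in the NCM460 control and 237 (219 CPM) with SCS. Its change in NCM460 was 1.21 (0.84 to 1.62), and -0.041 (-0.41 to 0.37) without the trend. RBMX, an X-linked hnRNP that also guards sister chromatid cohesion and whose row includes SNORD61, had 259 fragments (127 CPM) in the HT-29 control and 285 (119 CPM) with SCS, and 39 (50.1 CPM) in the NCM460 control and 118 (109 CPM) with SCS, a change in NCM460 of 1.10 (0.59 to 1.68). Without the trend it was -0.041 (-0.55 to 0.54), so neither gene kept a rise.

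The smaller hnRNP rises in NCM460 were those of HNRNPH1, HNRNPR, HNRNPA1 and HNRNPDL. HNRNPH1, which binds G-runs, had 352 fragments (172 CPM) in the HT-29 control and 345 (144 CPM) with SCS, and 49 (62.9 CPM) in the NCM460 control and 126 (117 CPM) with SCS, a change in NCM460 of 0.88 (0.40 to 1.40). HNRNPR changed by 0.88 (0.24 to 1.6). HNRNPA1 had 865 fragments (423 CPM) in the HT-29 control and 1030 (429 CPM) with SCS, and 366 (469.9 CPM) in the NCM460 control and 793 (733 CPM) with SCS, a change in NCM460 of 0.64 (0.46 to 0.82), and 13 pseudogene rows of it held 4 to 15 fragments per library. Adding those fragments altered no call. HNRNPDL, a paralog of HNRNPD, had 207 fragments (101 CPM) in the HT-29 control and 277 (115 CPM) with SCS, and 32 (41.1 CPM) in the NCM460 control and 69 (63.8 CPM) with SCS, a change in NCM460 of 0.62 (0.010 to 1.29). With the GC trend subtracted, these were -0.42 (-0.89 to 0.10), -0.46 (-1.09 to 0.26), -0.13 (-0.31 to 0.051) and 0.044 (-0.56 to 0.71), and none was called.

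All 4 hnRNP genes that fell in NCM460 lie on chromosome 19, and no other member does. HNRNPL, which binds CA repeats and whose row is shared with ECH1, had 544 fragments (266 CPM) in the HT-29 control and 623 (259 CPM) with SCS, and 305 (392 CPM) in the NCM460 control and 258 (239 CPM) with SCS. Its change in NCM460 was -0.71 (-0.96 to -0.47), and -0.66 (-0.91 to -0.42) with the GC trend subtracted, still called. HNRNPM, PTBP1 and HNRNPUL1 changed by -0.79 (-1.19 to -0.41), -0.79 (-1.02 to -0.57) and -0.71 (-1.01 to -0.42), and by -0.32 (-0.72 to 0.055), -0.097 (-0.32 to 0.12) and -0.18 (-0.48 to 0.11) without the trend, no longer called. With nuclear totals, HNRNPL and HNRNPUL1 were not called. By total fragments, or with a trend on expression level subtracted, none of these 4 genes was called lower. The GC content of these genes was 49.8% for HNRNPL, 54.9% for HNRNPM, 56.3% for HNRNPUL1 and 61.7% for PTBP1. Of all 816 loci tested on that chromosome in NCM460, 275 (33.7%) were called lower and 13 higher, with a median GC content of 59.4%, against 12.4% lower among the 11841 loci elsewhere. In HT-29, 13.1% of the loci of chromosome 19 and 14.9% of the others were called lower.

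The SR rises in NCM460 started from low control counts. SRSF11 went from 10 to 76 fragments, a change in NCM460 of 2.34 (1.5 to 3.57), and it was the highest SR value in both lines. With the GC trend subtracted it was 1.06 (0.21 to 2.29) and still called. SRSF10 went from 9 to 50 fragments, a change in NCM460 of 1.89 (0.96 to 3.21), and 0.79 (-0.13 to 2.11) without the trend. TRA2B had 261 fragments (128 CPM) in the HT-29 control and 325 (135 CPM) with SCS, and 27 (34.7 CPM) in the NCM460 control and 101 (93.4 CPM) with SCS, a change in NCM460 of 1.40 (0.81 to 2.10). Its paralog TRA2A had 93 fragments (45.5 CPM) in the HT-29 control and 113 (47.0 CPM) with SCS, and 15 (19.3 CPM) in the NCM460 control and 43 (39.8 CPM) with SCS, a change in NCM460 of 1.00 (0.17 to 2.0). SRSF1, SRSF7 and SRSF2 changed by 1.05 (0.58 to 1.59), 1.01 (0.32 to 1.82) and 0.93 (0.20 to 1.78). Apart from SRSF11, none of these 7 SR rises was called after the GC step, which gave 0.35 (-0.25 to 1.05) for TRA2B, 0.025 (-0.81 to 1.03) for TRA2A, 0.084 (-0.39 to 0.62) for SRSF1, 0.058 (-0.63 to 0.86) for SRSF7 and 0.48 (-0.25 to 1.33) for SRSF2.

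CLK4 had 0 fragments in the NCM460 control and 9 with SCS, at least 2.16-fold higher against a floor of 3 fragments per library, with an interval on the log2 scale from 0.51 upward. CLK1 had 4 and 13 fragments there, a change in NCM460 of 1.05 (-0.47 to 3.30), which counting error at this depth cannot separate from no change. Summed, both kinases had 31 and 122 fragments in HT-29 and 4 and 22 in NCM460. With the GC trend subtracted, neither was called in NCM460 and both were called higher in HT-29.

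Genes called in NCM460 after the GC step, but not under TMM scaling without it, were all lower after that step. They were HNRNPA0 at -0.79 (-1.25 to -0.31), HNRNPC at -0.97 (-1.17 to -0.77), HNRNPD at -1.31 (-1.64 to -0.98), HNRNPU at -1.01 (-1.28 to -0.74), SRSF3 at -1.21 (-1.76 to -0.65), SRSF4 at -1.16 (-1.76 to -0.56), SRSF5 at -1.33 (-1.95 to -0.71), SRSF6 at -0.72 (-1.23 to -0.18) and SRSF9 at -0.73 (-1.20 to -0.25). Under TMM without that step the same genes lay from -0.28 (-0.91 to 0.34) for SRSF5 to 0.40 (-0.11 to 0.94) for SRSF6. None of them was called there. By total fragments HNRNPA0, HNRNPC, HNRNPD, HNRNPU, SRSF3, SRSF6 and SRSF9 were instead called higher. By deposited FPKM HNRNPD, SRSF3, SRSF4, SRSF5 and SRSF6 were called lower. Of these 9, HNRNPA0, HNRNPC, HNRNPD, HNRNPU, SRSF3 and SRSF6 had fallen in HT-29.

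Set side by side, 30 of the 39 genes (76.9%) were called in at least 1 line, against 53.3% of the 10849 loci tested in both. SRSF11 and CLK4 rose in both lines (4.22% of all loci did), and HNRNPM, HNRNPUL1 and PTBP1 fell in both (3.36% of all loci). The genes that fell in HT-29 and rose in NCM460 were 6 in number, namely HNRNPA2B1, HNRNPR, SRSF1, SRSF2, SRSF7 and SRSF10, or 15.4% of the 39 against 1.96% of all loci, and the difference between the lines was not tested. No member rose in HT-29 and fell in NCM460, as 1.87% of all loci did. A further 10 were called lower in HT-29 and not in NCM460 (9.96% of all loci), and CLK1 was called higher in HT-29 and not in NCM460 (10.9%). In NCM460 and not in HT-29, 7 were called higher (11.3%) and HNRNPL was called lower (9.65%). These shares of all loci were not matched for GC content. Of the 39 genes, 21 lie under 42% GC, where 1162 of 2968 loci were called higher in NCM460. After the GC trend was subtracted, 2 of the 19 NCM460 calls kept their direction, those of HNRNPL and SRSF11. None of the 6 genes with opposite calls was then called in NCM460. The 9 genes called in neither line were HNRNPH2, HNRNPH3, HNRNPUL2, PCBP1, PCBP2, SRSF4, SRSF5, SRSF9 and SRRM2. Their changes lay between -0.47 and 0.41 in HT-29 and between -0.55 and 0.48 in NCM460, and the rows of HNRNPH2 (RPL36A), HNRNPUL2 (BSCL2), PCBP2 (PRR13) and SRRM2 (AC092117.2) hold other genes too. HNRNPH2 and HNRNPH3 bind G-runs like HNRNPH1, PCBP1 and PCBP2 bind C-rich RNA, and SRRM2 is a large scaffold protein of nuclear speckles.

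As a share of nuclear fragments, the 23 hnRNP genes summed to 1.06% (1.04 to 1.08) in the HT-29 control and 0.691% (0.677 to 0.705) with SCS. In NCM460 they summed to 0.724% (0.701 to 0.748) and 0.880% (0.857 to 0.904). The SR genes held 0.347% (0.336 to 0.358) and 0.231% (0.223 to 0.239) in HT-29, and 0.242% (0.228 to 0.256) and 0.273% (0.260 to 0.286) in NCM460. On this scale the shares were lower with SCS in HT-29 and higher in NCM460 beyond counting error. The median of all loci also rose on it in NCM460, by 0.23, and after TMM scaling the summed SR genes were at 1575 and 1568 CPM there and the hnRNP genes at 4722 and 5058 CPM. In HT-29 the TMM-scaled sums were 5476 and 3979 CPM for hnRNP genes and 1799 and 1330.4 CPM for SR genes. The HT-29 control library held the highest share of both families.

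**Figure D4:**
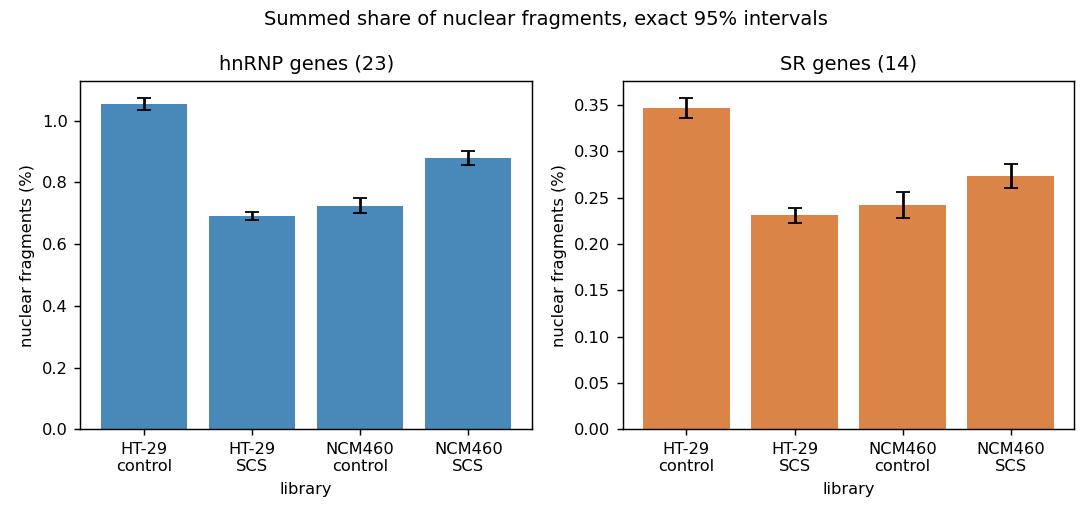
Summed fragments of the 23 hnRNP genes (left) and the 14 SR genes (right) as a percentage of nuclear fragments (y axis) in each of the 4 libraries (x axis), with exact 95% intervals that cover counting error. The HT-29 control stands highest in both panels, at 1.06% and 0.347%, and the HT-29 SCS library lowest, at 0.691% and 0.231%.

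Between the lines, most SR genes had lower CPM in NCM460 than in HT-29 without SCS. The median log2 difference of NCM460 minus HT-29 in untreated cells was -1.31 over the 14 SR genes, with 3 higher in NCM460, and -0.50 over the 23 hnRNP genes, with 9 higher, against -0.10 for all 12691 loci, of which 47.0% were higher. The summed SR genes differed by less, at 1799 CPM in the HT-29 and 1575 CPM in the NCM460 control, and by deposited FPKM the SR medians of these libraries were 45.6 and 46.5. Among the libraries with SCS the medians were 0.03 for SR genes and 0.04 for hnRNP genes, against -0.05 for all loci. The difference between lines also followed GC content, with a rho of 0.51 over all loci untreated and 0.15 with SCS, and its part in these medians was not tested.

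Levels of different genes were compared only per length, in the FPKM values the authors deposited. HNRNPH2, whose row is shared with the ribosomal protein gene RPL36A, ranked first of the 39 in every library, and at 630.2, 463, 522 and 709 FPKM in the HT-29 control, HT-29 SCS, NCM460 control and NCM460 SCS libraries its value cannot be assigned to the hnRNP gene alone. HNRNPA1 stood at 229, 209, 465 and 515 and PCBP2 at 255, 227, 457 and 267 in the same order, and both were among the highest 4 in all libraries. CLK4 (1.74, 4.51, 0 and 3.30) was the lowest in each. The median FPKM of hnRNP genes was 88.4, 47.8, 103 and 81.9 and that of SR genes 45.6, 25.4, 46.5 and 36.8, against 5.09, 4.67, 6.33 and 5.63 for all loci at 1 CPM or more. HNRNPAB dropped from rank 10 to rank 30 in HT-29 with SCS. CPM and FPKM went opposite ways for 7 of the 39 genes in NCM460, each higher in CPM and lower in FPKM with SCS, namely HNRNPA0, HNRNPC, HNRNPH3, HNRNPU, SRSF6, SRSF9 and TRA2B. TRA2B, the only called gene among them, had 53.0 FPKM without and 42.3 with SCS while its fragments were 27 and 101. In HT-29 this held for 6 genes, and 2 more were lower in CPM and higher in FPKM, and none of these 8 was called. SRSF10 in NCM460 had 18.1 and 19.1 FPKM against 9 and 50 fragments. With 1 library each, neighbours in this order have no replicate spread to separate them.

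Other genes of the splicing pathway were read as whole lists. Over all loci tested, 16.8% were called higher and 14.8% lower in HT-29, and 15.4% and 13.8% in NCM460. With the GC trend subtracted, the shares in NCM460 were 5.65% and 6.25%. The spliceosome core (41 genes, among them the Sm proteins and the SF3 subunits) had a median of -0.47 in HT-29, with 1 gene called higher and 17 lower. In NCM460 its median was -0.34, with 10 higher and 14 lower. After the GC step there it was -0.19, with 3 higher and 7 lower. In HT-29 its extremes were SNRPF, an Sm protein, with 67 and 24 fragments (-1.6), and SF3B5, a U2 snRNP subunit, with 19 and 55 (1.19). In NCM460 they were SF3B4, another U2 snRNP subunit, with 103 and 34 (-2.03), and SNRPB2, a U2 snRNP protein, with 5 and 34 (2.09). Of 6 further SR kinases, 0 were higher and 1, SRPK1 (-0.65), lower in HT-29, where SRPK2 was highest at 0.37 and not called. In NCM460 3 were higher, led by PRPF4B (2.19), and CLK2 (-1.09) was lower. After the GC step, 1 of these kinases was higher and 3 were lower in NCM460. The HT-29 core genes thus showed calls mainly in the same direction as the hnRNP and SR genes. The 6 further SR kinases had a median of 0.01 in HT-29, with 3 above and 3 below 0, so they had no common direction there.

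Of 38 other splicing regulators tested in HT-29, 3 were higher and 8 lower, with a median of -0.20. ESRP1, an epithelial splicing regulator, had 174 and 450 fragments (1.13), and MBNL3, of the muscleblind family, had 60 and 23 (-1.5). In NCM460, 14 of 40 were higher and 5 lower, with a median of 0.39. With the GC trend subtracted, 5 were higher and 7 lower, and the median was -0.05. MATR3, a nuclear matrix protein, was highest on the scale without that step, at 26 and 173 fragments (2.22). RALY, an hnRNP C relative, was lowest at 107 and 68 (-1.11). Of the 8 nonsense-mediated decay genes, 3 were higher and 2 lower in HT-29, and 3 higher and 1 lower in NCM460. After the GC step, 0 of them were called in NCM460. UPF1, the helicase of that pathway, fell in both lines, from 147 to 77 fragments in HT-29 (-1.13) and from 89 to 73 in NCM460 (-0.75). SMG1, the kinase that phosphorylates UPF1, had 255 and 587 fragments in HT-29 (0.96), though near-identical copies of this gene make its count uncertain. UPF2 had 4 and 18 in NCM460 (1.48). With the GC trend subtracted, UPF1, UPF2, PRPF4B and SNRPB2 were no longer called in NCM460.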

How the data were processed

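RNA-seq of HT-29 and NCM460 cells with and without SCS was analysed, with 1 library per condition and the group taken from the labels. According to the study's methods, RNA was extracted with TRIzol, sequenced as paired ends, and tested with Cuffdiff, while the submitters' processing notes name bcl2fastq 2.17.1.14, cutadapt 1.9.1, Bowtie2, HTSeq 0.6.1 and hg19. The deposited coordinates are those of GRCh38, since 89.6% of loci have the start and end of GENCODE release 29. Strand use in counting is not given in the sources used here, and the kit named in the labels (NEBNext Ultra RNA) does not mark strand. The paper's statistics speak of biological replicates, and 1 library per condition was analysed here.

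The authors deposited, per library, a count column that is a signal made of fragment counts divided by a size factor, and FPKM values. Whole fragments were recovered for at least 99.9% of values above 0 in each library within 0.1 fragment. The design had assumed whole counts. Rows without a gene name, 26 in number with under 0.1% of fragments, were left out. Rows with identical values in all libraries were merged, which gave 18650 loci, of which 1812 hold more than 1 gene. Rows with few fragments were merged only where they were also adjacent or overlapping. Of the 39 genes 13 share a row, and their values are uncertain.

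Fragments were scaled with TMM (edgeR 4.0.16, factors 1.24, 1.50, 0.578 and 0.935 for HT-29 control, HT-29 SCS, NCM460 control and NCM460 SCS). Log2 fold changes used CPM with a prior count of 2, and loci at a mean of 1 CPM or more in a line were tested. Exact Clopper-Pearson 95% intervals of the SCS share of fragments were computed with scipy 1.17.1. The floor of 3 fragments corresponds to 1.47 to 3.85 CPM. The count tests of edgeR and DESeq2 (1.42.0, used for size factors only) have no residual degrees of freedom within a line, so they were not fitted and no p-value was computed. GC content and length were from GENCODE transcripts, and the trend was a lowess fit with a span of 0.3 (statsmodels 0.14.6). The scripts were tested on simulated data. All 39 genes are accounted for, with full values for those called in either line, and of each other list the highest and lowest gene at 10 CPM or more are named. The members and lists were chosen with earlier results of these data known. There were 14 alternatives.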

Additional observations from a re-analysis of the deposited data

Results flagged for a closer look

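The 6 genes that were called lower with SCS in HT-29 and higher in NCM460 stood out because their library pairs moved in opposite ways, as did those of 1.96% of the 10849 loci tested in both lines. The log2 fold change was -0.89 in HT-29 and 1.53 in NCM460 for HNRNPA2B1, and -0.89 and 0.88 for HNRNPR. For the SR genes it was -0.91 and 1.05 for SRSF1, -1.06 and 0.93 for SRSF2, -0.76 and 1.01 for SRSF7, and -0.75 and 1.89 for SRSF10. With 1 library per condition the difference between the lines was not tested. By deposited FPKM, HNRNPR, SRSF1, SRSF7 and SRSF10 were not called in NCM460, while HNRNPA2B1 and SRSF2 kept their call there. After the GC trend was subtracted none of the 6 was called in NCM460, where their values were 0.44, -0.46, 0.08, 0.48, 0.06 and 0.79 in the same order, and all 6 were still called lower in HT-29.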

How the results depend on the processing

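In HT-29, the hnRNP and SR medians were below 0 under all 14 alternatives, from -0.31 to -0.74 for hnRNP and -0.26 to -0.70 for SR. Alternatives that only changed the cutoff on level kept all these genes in HT-29, so they could not move their medians or calls. The hnRNP median moved to -0.74 with nuclear totals, and by total fragments 5 hnRNP and 5 SR genes were called in place of 12 and 8, since that scale moved all loci up. In NCM460, the hnRNP median moved to 0.90 by total fragments and the SR median to -0.29 by deposited FPKM, against -0.39 for all loci. The hnRNP genes called there were 5 with the GC trend subtracted, all lower, in place of 11 of 23, and 7 of the 14 genes that do not share a row. Under the GC step, single genes reversed in NCM460: HNRNPA1 to -0.13, HNRNPA3 to -0.041, HNRNPH1 to -0.42, HNRNPR to -0.46 and RBMX to -0.041. TRA2B reversed to -0.33 by FPKM, where the cause was not tested. Of the 22 genes called in HT-29, 11 kept their call by total fragments, 19 after thinning to equal nuclear depth, 20 by FPKM and at least 21 under each other alternative that kept all genes. Of the 19 called in NCM460, 2 kept it under the GC step, 9 by FPKM and 15 to 19 under the others that kept all genes. Of the genes that share a row, 6 were among the HT-29 calls and 7 among the NCM460 calls. No paired analysis was possible because the labels give no replicate numbers to pair by. A model of a change shared by both lines, with line as a block, would leave 1 residual degree of freedom and was not fitted. With 1 library per condition there was no replicate to leave out.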
